A study of Rattus norvegicus with 6 samples.

Results

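The Slc22 organic ion transporters examined here are 9 genes, Slc22a2, Slc22a3, Slc22a4, Slc22a5, Slc22a6, Slc22a7, Slc22a8, Slc22a12 and Slc22a18, chosen by symbol out of 19 symbols of the Slc22a series and 17051 gene symbols in all. Kidney tissue of 6 male Sprague Dawley rats had been sequenced after a week of feeding. The AL group (rats 61, 71 and 88) ate the normal diet, a standard powdered chow given ad libitum. The HD group (rats 64, 67 and 69) ate the hyperammonemic diet, the same kind of chow mixed with amino acids in the proportions of haemoglobin. Each group holds 3 animals, and the study's methods name a halved kidney as the source of RNA for qPCR but give no separate source for sequencing. The study asked how the kidney responds to a diet meant to raise renal ammonia production, which it calls pre-hyperammonemic. The comparison made here is HD against AL for the transporters of organic anions and of organic cations. These genes had been proposed because earlier results of the same rats placed Slc22a8 among the genes with the smallest *P* values, so the diet contrast of all 9 members is a description with no test, and nothing is supported with it.

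The Slc22 proteins are membrane carriers that move small charged molecules between blood, tubule cell and urine. In the proximal tubule the organic anion transporters OAT1 and OAT3 take up drugs, metabolites and uremic solutes from blood in exchange for dicarboxylates such as alpha-ketoglutarate, which sodium-coupled carriers supply. OCT2 does the corresponding work for organic cations, which leave the cell for urine through MATE carriers. Other members return substances from the filtrate, such as URAT1 for urate and OCTN2 for carnitine.

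The total estimated counts ran from 12499945 to 30466461 per rat, with the AL rats between 13221487 and 16455405. All 9 members were found, each with 1 transcript model that overlapped no other gene in the files, and all 9 passed the minimum of 30 counts in at least 1 rat. Slc22a3 passed through the HD rats 67 and 69 alone. Proximal tubule transcripts were abundant, as the label of kidney requires, with summed normalized CPM (counts scaled to the size of the library) of the 4 straight-segment markers between 11912 and 18375 in every rat. Of the 6 markers of the first and middle proximal segments, Slc5a12 stayed under 30 counts in every rat.

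Five-prime flanking sequence is shown first for 3 members, Slc22a8, which had the largest diet difference, and Slc22a2 and Slc22a12, the most abundant members of the cation and the anion side. The sequences are the 250 bases before the RefSeq start on the GRCr8 build, written 5′ to 3′ on the strand of the gene, with motif matches in capitals. Slc22a8 lies at chr1:214927034-214927283 (+), Slc22a2 at chr1:50711020-50711269 (−) and Slc22a12 at chr1:213281381-213281630 (−).
Slc22a8: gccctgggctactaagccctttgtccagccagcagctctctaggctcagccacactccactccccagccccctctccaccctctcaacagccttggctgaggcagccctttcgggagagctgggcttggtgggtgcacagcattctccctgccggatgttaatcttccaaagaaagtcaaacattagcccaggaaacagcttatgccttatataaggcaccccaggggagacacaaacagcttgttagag
Slc22a2: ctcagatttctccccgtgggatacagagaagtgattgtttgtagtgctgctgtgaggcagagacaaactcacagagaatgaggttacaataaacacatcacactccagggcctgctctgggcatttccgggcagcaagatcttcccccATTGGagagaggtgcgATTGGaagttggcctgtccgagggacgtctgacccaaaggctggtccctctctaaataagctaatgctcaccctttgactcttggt
Slc22a12: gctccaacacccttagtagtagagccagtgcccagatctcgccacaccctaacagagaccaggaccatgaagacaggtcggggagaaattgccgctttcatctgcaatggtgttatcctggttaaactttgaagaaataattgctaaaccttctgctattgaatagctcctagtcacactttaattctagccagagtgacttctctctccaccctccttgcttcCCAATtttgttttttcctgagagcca

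Of the 9 members, 8 had an entry among the 33469 RefSeq promoters, and 4 motifs were searched on both strands. None of them matched in Slc22a8, which is therefore printed without capitals. The capitals in Slc22a2 and Slc22a12 mark CCAAT or its reverse complement ATTGG, which also occurred in Slc22a7 and Slc22a18, so that 4 of 8 members held it beside 34% of all promoters. GGGCGG, the GC box, occurred in Slc22a4 and Slc22a5 only and in 30.5% of all promoters. TATAAA (12.9% of all promoters) and AGGTCA, a nuclear receptor half-site (14.1%), matched no member, which says only that these letters are not in this window. No motif overlapped another in the 3 sequences shown.

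Slc22a8 encodes OAT3, a basolateral organic anion exchanger. On the rn5 build its transcript lies at chr1:231737031-231755261 on the + strand, with 11 exons. Its normalized CPM were 14.7, 14.8 and 17.2 in AL rats 61, 71 and 88, and 247, 105 and 77.5 in HD rats 64, 67 and 69. All HD rats lay above all AL rats, the lowest HD rat was 4.51 times the highest AL rat, and rat 64 stood above the other two HD rats. The means were 15.6 ± 1.42 CPM (SD, n = 3) in AL and 143 ± 90.9 CPM (SD, n = 3) in HD. The fitted fold was 9.16, with a range of 6.79 to 12.4 at 1 SE to either side, that is a log2 fold change of 3.20 (SE 0.43). The values rest on 185 to 267 estimated counts per AL rat and on 2093 to 2908 per HD rat. Without rat 64 the log2 fold change was 2.55.

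Slc22a6 encodes OAT1, the classical *p*-aminohippurate carrier of the same membrane, and lies 6582 bases downstream of Slc22a8 at chr1:231761843-231770063 (rn5, + strand, 10 exons). Its CPM were 299, 279 and 210 in the AL rats and 739, 512 and 410 in the HD rats, in the order of rats used above. Again every HD rat was above every AL rat, rat 64 was the highest, and the lowest HD rat was 1.37 times the highest AL rat. The means were 263 ± 46.8 CPM (SD, n = 3) in AL and 553 ± 168 CPM (SD, n = 3) in HD, a fold of 2.11 (1.78 to 2.49 at 1 SE) and a log2 fold change of 1.07 (SE 0.24). Leaving out 1 rat at a time kept this log2 fold change between 0.81 and 1.26.

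**Figure D1:**
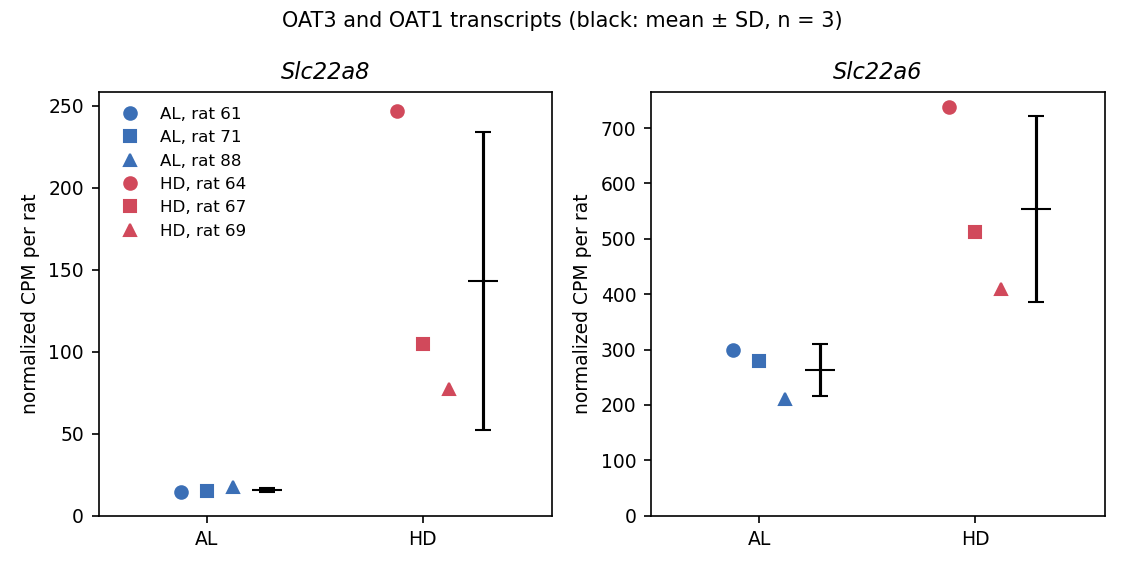
Normalized CPM of Slc22a8 (left) and Slc22a6 (right) in each rat on linear axes from 0, with the group mean ± SD in black (n = 3 rats). The 3 HD rats sit above the 3 AL rats for both genes, and rat 64 is the highest for both (247 and 739 CPM).

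The other organic anion members differed less. Slc22a12 encodes URAT1, the apical urate reabsorber (rn5 chr1:228902080-228909194, − strand). It had 1411, 1081 and 944 CPM in AL and 1426, 1488 and 1256 CPM in HD, with overlapping groups and a log2 fold change of 0.28 (SE 0.18). Slc22a7 encodes OAT2 (chr9:15822368-15828166, + strand), a carrier known for nucleotides and creatinine. Its 70.8, 47.8 and 54.4 CPM in AL and 67.9, 62.3 and 57.1 CPM in HD also overlapped, with a log2 fold change of 0.11 (SE 0.16). Without AL rat 71 that value was −0.0043.

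On the cation side, Slc22a2 encodes OCT2, the main basolateral organic cation carrier of kidney (rn5 chr1:51394024-51435104, + strand). It had 1728, 1695 and 1805 CPM in AL and 1883, 1951 and 1716 CPM in HD. The groups overlapped, the log2 fold change was 0.09 (SE 0.12), and the AL and HD rats spread by 3.23% and 6.53% of their means (SD). Scaling by library size alone moved the value to 0.0022.

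Slc22a3 encodes OCT3, a widely expressed carrier of monoamines and other cations (rn5 chr1:51234470-51321364, − strand). It was nearly undetected, with 3, 5 and 5 estimated counts in the AL rats and 3, 33 and 114 in HD rats 64, 67 and 69. HD rat 64 was as low as the AL rats, so the groups overlapped, and only rats 67 and 69 were above them. The log2 fold change of 2.73 (SE 0.87) rests on these few counts and was 1.79 without rat 69. Rats 67 and 69 also had the highest summed level of the 4 adipocyte markers, 409 and 367 CPM, against 171 CPM in rat 64 and 171 to 282 CPM in the AL rats. For the 5 smooth muscle and mesangial markers the sum was 290 CPM in rat 69 and between 58.6 and 162 CPM in the other 5 rats. None of the 9 adipocyte, smooth muscle and mesangial markers was at 0 in any rat, and their part in the result was not tested.

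The carnitine and ergothioneine carriers lie side by side on chromosome 10. Slc22a4 (OCTN1, rn5 chr10:39059951-39154295, − strand) had 11.4, 17.2 and 16.6 CPM in AL and 17.5, 16.1 and 16.9 CPM in HD, a log2 fold change of 0.16 (SE 0.19). Its model in the files has 8 exons and 1192 bases, the shortest of the 9. Slc22a5 (OCTN2, rn5 chr10:38982882-39009871, − strand) had 158, 160 and 171 CPM in AL and 199, 199 and 115 CPM in HD, a log2 fold change of 0.07 (SE 0.21). HD rat 69 was below every AL rat and the other HD rats were above them. Leaving out 1 rat turned the direction of either gene, to −0.0074 for Slc22a4 without AL rat 61 and to as low as −0.057 for Slc22a5 without HD rat 67.

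Slc22a18, an orphan carrier in an imprinted region, belongs to no agreed substrate class (rn5 chr1:223537696-223560895, + strand). It had 162, 110 and 113 CPM in AL and 230, 189 and 146 CPM in HD. Only HD rat 69 lay inside the AL range, and the log2 fold change was 0.55 (SE 0.21), a fold of 1.47.

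**Figure D2:**
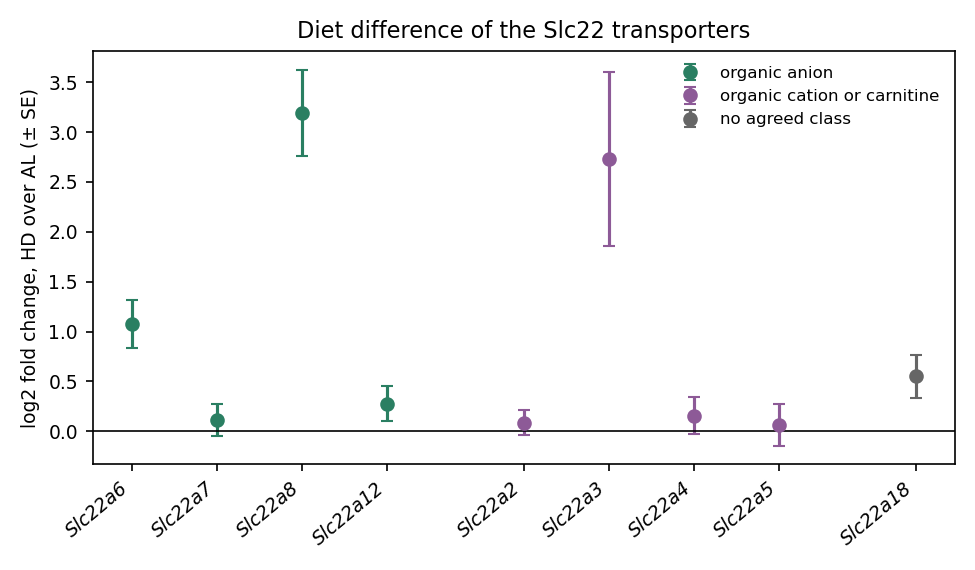
Log2 fold change of HD over AL for the 9 members, with bars of 1 SE from the fit across all genes, coloured by substrate class. Slc22a8 (3.20) and Slc22a3 (2.73) are farthest from 0, Slc22a6 follows at 1.07, and the bars of Slc22a2, Slc22a4, Slc22a5 and Slc22a7 reach below 0.

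Counted over the family, the log2 fold change was above 0 for 9 of 9 members (8 of 9, without Slc22a5 at −0.03, when scaled by library size alone) with a median of 0.28, beside a median of 0.01 over the 11553 genes tested. In edgeR's quasi-likelihood fit 0 of 9 members had an adjusted *P* of 0.05 or less (range 0.254 to 0.953), beside 0.0% of all genes. At an unadjusted *P* under 0.05 in the same fit there were 4 of 9 members (Slc22a3, Slc22a6, Slc22a8 and Slc22a18), all higher in HD. The share of all genes was 10.6% in either direction, with 4.66% higher and 5.94% lower in HD. Slc22a3 passed the count minimum through HD rats alone. With at least 10 counts in every rat, where Slc22a3 drops out, the count was 3. DESeq2 called 2 of 9 at its adjusted threshold, Slc22a6 and Slc22a8, beside 1.58% of all genes (0.805% higher in HD), and 4 of 9 at an unadjusted *P* under 0.05, beside 11.5% of all genes and 4.7% higher in HD. Every HD rat was above every AL rat for those same 2 of 9 members, beside 7.25% of all genes, and every HD rat was below every AL rat for 0 of 9, beside 7.01%. Because the members were proposed from this contrast, nothing is read from these shares. Without HD rat 64 the adjusted count in edgeR was 1 of 9 (Slc22a8), which is likewise a description.

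To set the anion against the cation carriers, the mean log2(CPM + 0.5) of Slc22a6, Slc22a7, Slc22a8 and Slc22a12 was compared with that of Slc22a2, Slc22a3, Slc22a4 and Slc22a5 in each rat. The anion side exceeded the cation side by 1.89, 1.48 and 1.36 in the AL rats and by 2.94, 2.13 and 1.83 in HD rats 64, 67 and 69. The group means of this excess were 1.58 ± 0.28 (SD, n = 3) and 2.30 ± 0.58 (SD, n = 3), a difference of 0.72 on the log2 scale, and the groups overlapped because HD rat 69 was below AL rat 61. The anion side was 1.11 higher in HD and the cation side 0.39 higher, of which 0.09 was left without Slc22a3, the member that passed the count minimum through HD rats alone. Without Slc22a8 the difference was 0.10, and without the sparse Slc22a3 it was 1.02. Leaving out rat 64 gave 0.40 and leaving out rat 69 gave 0.96.

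**Figure D3:**
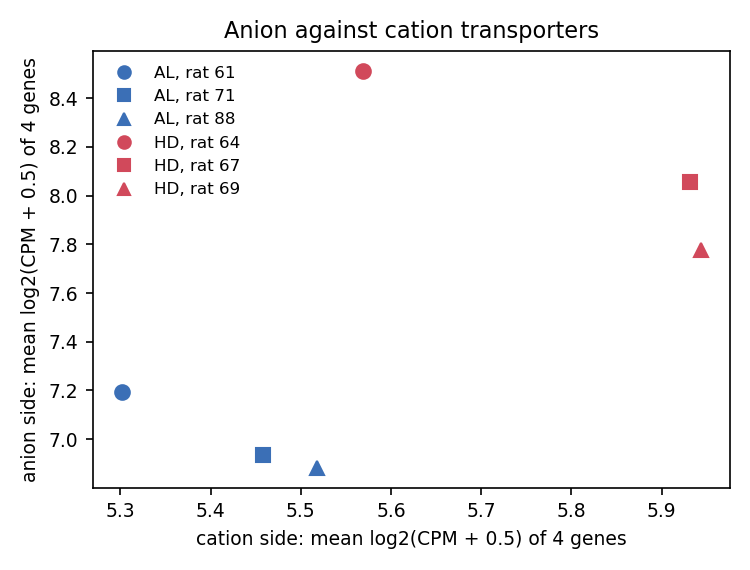
Mean log2(CPM + 0.5) of the 4 anion members (vertical axis) against that of the 4 cation members (horizontal axis), 1 point per rat. The HD rats lie higher on both axes (group means 8.12 against 7.003 on the vertical and 5.81 against 5.43 on the horizontal), the horizontal difference of 0.39 is 0.09 without Slc22a3, and HD rat 64 is highest on the anion side.

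Levels were compared between genes in TPM, the deposited transcript abundance scaled for transcript length and library, and ordered by the mean log2(TPM + 0.1) over the rats, an order that had no part in how the members were chosen. Over the 6 rats Slc22a2 was the most abundant with 1310 ± 75.4 TPM (SD, n = 6), followed by Slc22a12 with 911 ± 108 TPM and Slc22a6 with 315 ± 138 TPM. Slc22a18 had 168 ± 40.3 TPM, Slc22a5 85.2 ± 13.99 TPM and Slc22a7 57.4 ± 4.58 TPM. Slc22a8 followed with 55.6 ± 61.9 TPM, Slc22a4 with 21.5 ± 3.99 TPM and Slc22a3 with 0.477 ± 0.630 TPM.

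In 6 of the 8 neighbouring pairs the higher gene was higher in 6 of 6 rats. Each had *P* = 0.03125 in a two-sided exact sign-flip permutation test of log2(TPM + 0.1), the smallest value that 6 rats allow. After Benjamini-Hochberg adjustment over the 8 pairs it was 0.0417. The order that set the pairs came from these same TPM, so the *P* values describe the steps and lend the order no separate support. Of these pairs, that of Slc22a4 and Slc22a3 holds a gene that passed the count minimum through HD rats alone. The mean step was 0.53 on the log2 scale from Slc22a12 up to Slc22a2, 0.83 from Slc22a18 up to Slc22a6 and 5.77 from Slc22a3 up to Slc22a4. The neighbours that did not pass both involved Slc22a8, and their direction split by group. Slc22a7 exceeded Slc22a8 in 3 of 6 rats, the AL rats (exact *P* = 0.25, adjusted 0.286). Slc22a8 exceeded Slc22a4 in 3 of 6 rats, the HD rats (exact *P* = 0.4375, adjusted 0.4375). The test pools both diets, so differences of opposite direction cancel, and these *P* values do not show that the levels were alike. Slc22a8 was the gene whose place differed most between the groups, at place 8 with a mean of 11.6 TPM in the AL rats and at place 5 with 99.7 TPM in the HD rats. That move restates in TPM the diet contrast through which the members were proposed, so it is a description. Places 1 to 4 were the same in both groups.

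**Figure D4:**
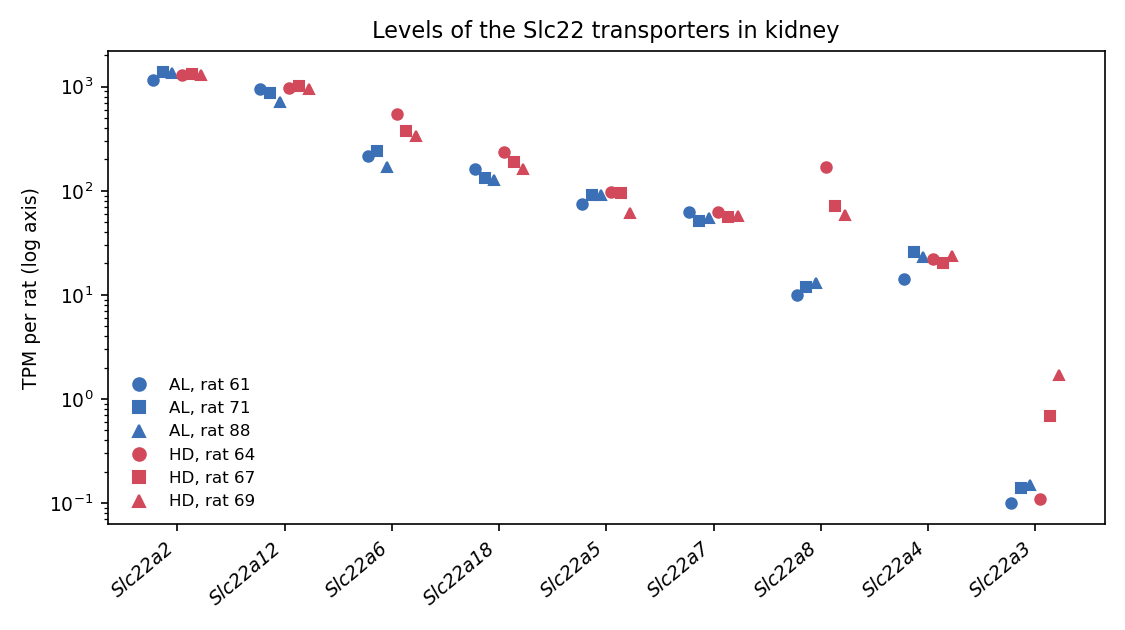
TPM of each member in each of the 6 rats on a log axis, ordered by the mean log2(TPM + 0.1), with AL rats in blue and HD rats in red. Slc22a2 and Slc22a12 lead in every rat, and Slc22a8 lies below Slc22a4 in the AL rats and between Slc22a7 and Slc22a18 in the HD rats.

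Expressed as a share of the 9 members' summed TPM, Slc22a8 made up 0.371 to 0.505% in AL rats and 1.98 to 4.96% in HD rats, and Slc22a6 made up 6.68 to 8.68% and 11.3 to 16.1%. The share of Slc22a2 was 44.0 to 53.5% in AL and 38.1 to 44.2% in HD, with ranges that meet. All anion members together had 37.1 to 46.6% in AL and 47.3 to 51.5% in HD, while the sum itself was 2560 to 2804 TPM and 2943 to 3430 TPM. OAT1 transcript outnumbered OAT3 transcript by 13.2 to 22.1 times in the AL rats and by 3.24 to 5.72 times in the HD rats. These are shares of transcript and not of transport.

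The genes around the OAT pair were described as a neighbourhood, a choice made after the data were seen. The 3 tested genes on each side are UST4r, Ust5r and Slc22a25 before Slc22a8, and Slc3a2, Wdr74 and Stx5 after Slc22a6. Their log2 fold changes ran from −0.11 to 0.32 (edgeR adjusted *P* from 0.466 to 0.989). Groups without overlap were found for 0 of 6, beside 7.25% of all genes above and 7.01% below. At such shares a count of 0 among 6 genes says little, and nothing is read from it. Slc22a25 had an unadjusted *P* of 0.0475 in edgeR, beside 10.6% of all genes under 0.05. UST4r and Ust5r overlap each other on 1 strand, so their counts may be split uncertainly.

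Genes whose pattern over the 6 rats was most like that of Slc22a8 were named by Pearson's r on log2(CPM + 0.5). All 6 points share the 2 diet groups and the same libraries, so r is a description. The first 5 of the 11553 genes tested were Sesn2 (r = 0.996), Clptm1 (0.995), RGD1563986 (0.993), Fam151a (0.991) and Ptprn (0.991), and Slc22a6 came at place 65 with r = 0.945. Sesn2, which encodes the leucine-binding stress protein sestrin 2, had 30.6, 30.8 and 30.2 CPM in AL and 57.9, 46.8 and 45.7 CPM in HD. For Slc22a6 the first 5 were Ccr10 (0.996), Rmnd1 (0.993), Pm20d2 (0.991), F13b (0.990) and Tbc1d19 (0.989). RGD1563986 was sparse, with 0.873 to 1.06 CPM in AL and 2.05 to 3.05 CPM in HD. So was F13b, with 0.463 to 0.873 CPM in AL and 1.28 to 3.14 CPM in HD. Both passed the count minimum through HD rats alone, the group in which they were higher, so nothing is read from their places.

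The partners of organic ion secretion were taken from a list of 26 genes, of which 25 were tested. Slc47a2, which encodes MATE2, had at most 5 counts in any rat. In edgeR 0 of 25 passed the adjusted threshold (0.0% of all genes, adjusted *P* from 0.352 to 0.890), 9 of 25 had an unadjusted *P* under 0.05 and all of these were higher in HD (10.6% of all genes in either direction, 4.66% higher), and DESeq2 called 3 of 25 (Slc13a2, Slc13a3 and Slc5a8), all higher in HD (1.58% of all genes, 0.805% higher). The log2 fold change was above 0 for 21 and below 0 for 4, with a median of 0.33, and every HD rat was above every AL rat for 8 of 25, beside 7.25% of all genes.

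Among the 5 genes of anion entry and counter-ion supply, 3 had all HD rats above all AL rats, beside 7.25% of all genes. Slc13a3, the basolateral NaDC3 that supplies dicarboxylate to the OATs, had 472, 428 and 496 CPM in AL and 1006, 646 and 812 CPM in HD, a log2 fold change of 0.82 (SE 0.18). Slc13a2, the apical NaDC1, had 112, 85.6 and 111 CPM against 184, 153 and 163 CPM (0.70, SE 0.14). Slco4c1, a basolateral organic anion carrier, had 6.91, 14.96 and 9.66 CPM against 24.9, 18.9 and 18.3 CPM (0.97, SE 0.29).

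On the apical side, 1 of 8 anion exit and urate genes had no overlap. It was Slc5a8, a sodium-coupled monocarboxylate carrier, with 11.7, 7.37 and 11.0 CPM in AL and 30.5, 16.3 and 37.9 CPM in HD (1.497, SE 0.33). Of the 3 tested cation exit genes, Abcb1a, a P-glycoprotein, had 31.5, 22.3 and 30.7 CPM in AL and 61.4, 53.5 and 32.2 CPM in HD (0.80, SE 0.25). Slc47a1, the MATE1 partner of OCT2, had a log2 fold change of 0.18 (SE 0.23).

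Among the 9 scaffolds and transcription factors, 3 had all HD rats above all AL rats, beside 7.25% of all genes. Hnf4a, a nuclear receptor of proximal tubule identity, had 718, 647 and 702 CPM in AL and 920, 875 and 806 CPM in HD (0.33, SE 0.12). Hnf4g, its close relative, had 7.06, 14.6 and 10.6 CPM against 23.5, 21.2 and 17.1 CPM (0.93, SE 0.27). Esr1, the oestrogen receptor alpha, had 4.05, 6.98 and 4.76 CPM against 12.2, 6.99 and 10.8 CPM (0.92, SE 0.30). Its groups were apart by 6.98 against 6.99 CPM only. Scaled by library size alone they overlapped, with 126 of 16455405 counts in AL rat 71 and 140 of 21086503 in HD rat 67.

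Markers of other cells and segments also differed in level between the groups. Of the 7 podocyte markers, all tested, 4 had every HD rat above every AL rat, beside 7.25% of all genes. All 7 were above 0, with a median log2 fold change of 2.35. They summed to 56.6 to 132 CPM in AL rats and to 197, 268 and 422 CPM in HD rats 64, 67 and 69. That is the reverse of the order of Slc22a8 in the HD rats. Of the 4 distal convoluted tubule markers 2 were tested, and 2 of 2 had every HD rat above every AL rat. They summed to 62.9 to 131 CPM in AL and 191 to 699 CPM in HD, with rat 64 the highest. The 6 markers of the first and middle proximal segments, of which 5 were tested, had a median of 0.57, and 2 of 5 had every HD rat above every AL rat. The median was the value of Slc5a2 (SE 0.43). Without overlap were Slc34a1 (0.70, SE 0.24) and Slc4a4 (1.94, SE 0.39). Slc5a2 and Slc4a4 passed the count minimum through HD rats alone. Lrp2 was at 0.19 (SE 0.16) and Cubn at −0.05 (SE 0.14), so the list did not rise as a whole. The 5 tested markers summed to 3500 to 4946 CPM in AL and 4856 to 6336 CPM in HD, again with rat 64 the highest. The 4 straight-segment markers had a median of 0.06, summed to 13420 to 15494 CPM in AL and 11912 to 18375 CPM in HD, and had 0 of 4 without overlap. The 4 thick ascending limb markers were all below 0 with a median of −0.14, and 1 of 4 had all HD rats below all AL rats, beside 7.01% of all genes. Their sum was 5482 to 6229 CPM in AL and 3645 to 5911 CPM in HD. The 4 of 5 macrophage markers that were tested were all below 0 with a median of −1.30. In edgeR 3 of 4 were lower at an unadjusted *P* under 0.05 (5.94% of all genes were lower) and 0 of 4 passed the adjusted threshold. They summed to 33.4 to 94.7 CPM in AL and 19.7 to 40.4 CPM in HD, with 0 of 4 without overlap. The median log2 fold change was −0.33 for 6 endothelial markers, −0.26 for 5 tubular injury markers and 0.38 for 4 urothelial markers. It was 1.14 for 4 adipocyte markers and 0.86 for 5 smooth muscle and mesangial markers. For 5 principal cell markers it was −0.05, with 1 of 5 above and 2 of 5 below without overlap. The 5 intercalated cell markers had a median of 0.27, with 1 of 5 above and 1 of 5 below without overlap. Their sum was lower in HD, 690 to 812 CPM against 827 to 980 CPM in AL. Of 5 lymphocyte markers 1 was tested. In bulk tissue fewer cells of a type and less RNA per cell cannot be told apart, and the part of these markers in the values of the transporters was not tested.

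**Figure D5:**
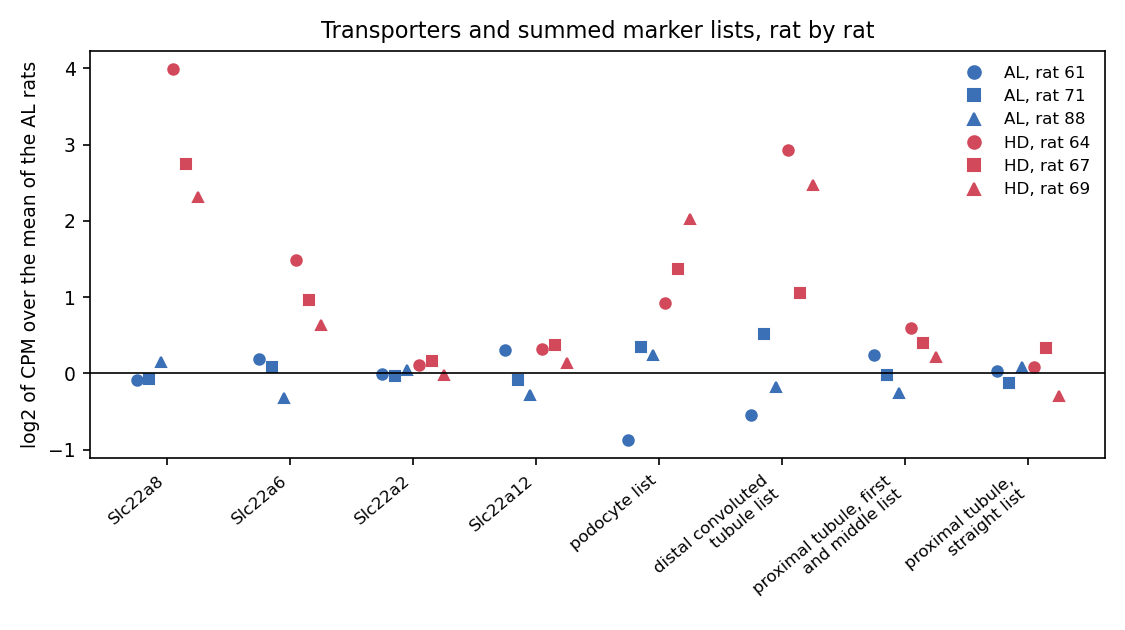
Log2 of each rat's CPM over the mean of the AL rats, for 4 transporters and for the summed CPM of 4 marker lists, with AL rats in blue and HD rats in red. Slc22a8, Slc22a6, the podocyte list and the distal convoluted tubule list have all HD rats above all AL rats, and the podocyte list runs from rat 64 up to rat 69 where Slc22a8 runs down.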

How the data were processed

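Poly(A) RNA libraries of kidney from 6 rats were made and sequenced by the authors. Per the labels, RSEM 1.1.15 and the rn5 build were used, and the files list UCSC-style transcript coordinates. The deposited files hold expected counts and TPM (abundance scaled for transcript length and library) per transcript, 1 file per rat. The study's methods name a library kit that does not mark strand and RSEM with its default settings, so reads from the 2 strands cannot be told apart, and near-identical family members may share reads.

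Expected counts were summed per symbol and rounded, and symbols with at least 30 counts in at least 1 rat were tested (11553 of 17051). Diet was fitted with edgeR 4.0.16 (TMM, quasi-likelihood test, R 4.3.3) with Benjamini-Hochberg adjustment and a threshold of 0.05. DESeq2 1.42.0 was an alternative, beside other normalizations, filters, posterior mean counts and leaving out each rat. Normalized CPM are counts scaled to the TMM-adjusted library size. SE refers to the log2 fold change. Levels between genes were compared in deposited TPM with an exact sign-flip permutation test, written out in Python 3.11.15 with numpy 2.4.6. The script for the fit was tested on simulated data.

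The members and gene lists were chosen with earlier results of these data known. Named genes were all 9 members, partner genes whose groups did not overlap, and the 5 genes most like Slc22a8 and Slc22a6. Slc47a1 falls outside this rule and was named after its values were seen. Other symbols beginning with Slc22a were named by count and range. Promoters are RefSeq sequences on GRCr8, and Slc22a2 and Slc22a3 each lie on the other strand in GRCr8 than in rn5. Apart from Slc22a3, each member had at least 144 counts in every rat. Nothing in the labels says which rats shared a cage or a day, so *P* values measure the spread between these 3 rats per group. Results for some genes on the lists are not reported here.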

Additional observations from a re-analysis of the deposited data

How the results depend on the processing

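The count of all genes at an adjusted *P* of 0.05 or less, 0 in edgeR (1224 at an unadjusted *P* under 0.05), was 2 with no filter on low counts, 182 in DESeq2 and 0 to 4 when 1 rat was left out, and the unadjusted count ran from 606 to 1744. For the 9 members the adjusted count was 2 in DESeq2 and 0 to 1 with 1 rat left out. For the 25 partners it was 3 in DESeq2, and their unadjusted count of 9 ran from 5 without rat 64 to 17 without rat 69. The anion minus cation difference of 0.72 was 0.10 without Slc22a8, an alternative chosen after seeing the data, and 0.40 to 0.96 with 1 rat left out. It has no value with at least 10 counts in every rat, because Slc22a3 drops out. Of 116 recomputed log2 fold changes of members, 113 moved by less than 1 SD, and the others were those of Slc22a2 (0.0022 with library size alone), Slc22a3 (1.79 without rat 69) and Slc22a8 (2.55 without rat 64). Library size alone moved the median of all genes from 0.01 to −0.07. The order of levels by mean log2(TPM + 0.1) kept 9 of 9 places with a pseudocount of 1 and without each rat, and 7 of 9 in the AL rats alone. By mean TPM, a scale added after seeing the data, it kept 9 of 9 with all rats or without any 1 HD rat and 7 of 9 without any 1 AL rat, and with 5 rats the sign-flip test cannot go below 0.0625. The cause of these changes was not tested. No paired analysis was possible because the labels give the rats of both groups no shared numbers.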

Other observations

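Of the 10 Slc22a symbols that are not among the members, 8 were tested. Their log2 fold changes ran from −0.01 to 0.73 with a median of 0.19, 0 of 8 passed the adjusted threshold in edgeR and 0 of 8 in DESeq2, and 2 of 8 had an unadjusted *P* under 0.05 (Slc22a23 and Slc22a25), beside 10.6% of all genes at an unadjusted *P* under 0.05 and 1.58% in DESeq2. Slc22a23, an orphan carrier, had 8.73, 12.6 and 12.3 CPM in AL rats 61, 71 and 88 and 23.1, 13.6 and 19.4 CPM in HD rats 64, 67 and 69, a log2 fold change of 0.73 (SE 0.24), and was the only one of the 8 with every HD rat above every AL rat, beside 7.25% of all genes. Slc22a13, an apical anion carrier, had 80.8, 59.1 and 55.6 CPM in AL and 27.2, 73.7 and 93.3 CPM in HD, so that HD rat 64 was the lowest and HD rat 69 the highest of the 6. Slc22a14 and Slc22a20 had at most 5 counts in any rat and were not tested.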
